A study of Homo sapiens with 6 samples.

Results

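The mitochondrial carrier family, solute carrier family 25 (SLC25), is a set of nuclear genes for transport proteins, most of them in the mitochondrial inner membrane. Members were chosen by name and gene type: every protein-coding gene whose symbol is SLC25A followed by a number, or UCP1, UCP2 or UCP3. This gave 49 of the 34036 genes listed in the count table, of which 43 passed the count filter and were tested. SLC25A31 and SLC25A52 have no entry in the table and were not analysed here.

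The study asked which transcripts change early after loss of DGUOK, deoxyguanosine kinase, a mitochondrial enzyme that phosphorylates purine deoxynucleosides for mitochondrial DNA synthesis. RNA was sequenced from HepG2 cells, a human liver tumour line used as a model of hepatocytes, collected 48 h after transfection. Cells received either a non-targeting siRNA pool (siControl, 3 libraries) or a siGENOME pool against DGUOK (siDGUOK, 3 libraries). The treatment label of all 6 samples names siControl, so groups were read from the sample titles and the column names of the count table. Both groups were transfected with RNAiMAX and 6 pmol of siRNA per well in the format of a 24-well plate. The siControl libraries held 19065684, 18915508 and 10527216 assigned counts in replicates 1, 2 and 3, and the siDGUOK libraries held 18613138, 15978314 and 21334876. Levels are given as counts per 1000000 assigned counts, with the totals scaled between libraries by TMM (CPM), which compare a gene between libraries. Others are given as transcripts per 1000000 transcripts (TPM), which also divide by transcript length and compare genes with each other.

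Carriers of this family share a common fold of membrane helices and move nucleotides, phosphate, carboxylates, amino acids, acylcarnitines, vitamins and cofactors between cytosol and matrix, mostly by exchange. In hepatocytes they connect compartments that share a pathway: fatty acid oxidation, the urea cycle, gluconeogenesis, the malate-aspartate shuttle and the export of citrate for lipid synthesis. ADP/ATP translocases exchange cytosolic ADP for matrix ATP, and other members supply the matrix with coenzyme A, folate, NAD and iron.

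DGUOK (ENSG00000114956.19) stood at 54.4, 53.1 and 48.2 CPM in siControl replicates 1, 2 and 3 and at 9.08, 10.5 and 6.72 CPM in the siDGUOK replicates. All 3 siDGUOK libraries lay far under all 3 siControl libraries. The log2 fold change, siDGUOK against siControl, was −2.57 (SE 0.19, 3 libraries per group, adjusted p = 1.64e-08). Here and throughout, adjusted p is from the edgeR quasi-likelihood test with the Benjamini-Hochberg correction over all 14476 genes tested. A gene is said to be called when its adjusted p is under 0.05 and its absolute log2 fold change is above 0.5. These p-values measure the spread between the libraries at hand, which the labels name replicates without saying whether they came from separate cultures.

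Hepatocyte markers were present in every library. ALB (albumin) was at 18791, 14273 and 15276 CPM in siControl and at 6328, 5595 and 4279.8 CPM in siDGUOK. All siDGUOK libraries were under all siControl libraries for ALB. The summed level of the 10 hepatocyte markers was 56291, 50986 and 49576 CPM in siControl and 30210, 27053 and 25721 CPM in siDGUOK, with 8 of 10 called lower (80%, beside 6.68% of all genes tested) and a median log2 fold change of −1.23. HNF4A lost its call without siControl replicate 1 (−0.46, adjusted p = 0.00244) and without siDGUOK replicate 3 (−0.47, adjusted p = 0.00161). SERPINA1, the alpha-1 antitrypsin gene, had a log2 fold change of 0.02, and APOA2, an apolipoprotein gene, had −0.23 with an adjusted p of 0.0300. In bulk RNA, fewer cells of a type and less RNA per cell cannot be told apart.

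Some siDGUOK libraries stood apart in genes that hepatocytes are not known for. T cell receptor genes summed to 16, 37 and 33 counts in the siControl libraries and to 109877, 1333 and 73 counts in siDGUOK replicates 1, 2 and 3, and TRDJ2 alone held 58437 of those in replicate 1. The T cell markers were highest in siDGUOK replicate 2, not in replicate 1: CD3E was at 1.08, 3.63 and 0 CPM in siDGUOK replicates 1, 2 and 3, against 0.801, 0.533 and 0.858 CPM in siControl. CD2 was at 0.108, 7.08 and 0 CPM in siDGUOK and at 0, 1.07 and 0 CPM in siControl. PTPRC, a gene of white blood cells in general, was at 2.00, 7.94 and 2.67 CPM in siDGUOK and at 0.481, 2.93 and 0.191 CPM in siControl. Of 15 markers of other liver and blood cell types, 14 have an entry (MS4A1 has none), 10 were tested and 1 was called (10%, beside 14.1% of all genes). Of the 10, 9 had a positive log2 fold change, with a median of 2.31, which was 0.90 without siDGUOK replicate 2 and 0.14 with shrunken fold changes. COL1A2 was also called without siDGUOK replicate 3 (4.91, adjusted p = 0.000693), PECAM1 without siDGUOK replicate 1 (3.99, 0.0116), CDH5 without siControl replicate 3 (9.23, 0.00415) and PTPRC without siControl replicate 2 (3.55, 0.0143). With replicate pairs as a block 4 of the 10 were called, COL1A2 (4.97, adjusted p = 0.00608), PTPRC (2.24, 0.0453) and VWF (3.36, 0.00148) being added, beside 2077 of 14476 genes. Without mitochondrially encoded genes 3 were called, COL1A2 (4.35, 0.0450) and PECAM1 (3.45, 0.0419) being added, beside 2035 of 14453 genes, and with no count filter 3, CDH5 (2.84, 0.0175) and PECAM1 (3.46, 6.47e-05) being added, beside 2172 of 24670 genes. The summed level of the markers with an entry was 1616, 1706 and 1707 CPM in siControl and 1934, 1855 and 1792 CPM in siDGUOK, nearly all of it from LYZ (lysozyme). Without LYZ the sum was 6.78, 10.6 and 6.96 CPM in siControl and 37.9, 109 and 28.3 CPM in siDGUOK. The called marker was COL1A1, a collagen gene of mesenchymal cells, at 0.481, 1.97 and 1.05 CPM in siControl and 20.2, 20.7 and 17.4 CPM in siDGUOK. In siDGUOK replicate 2, VWF, PECAM1 and CDH5, endothelial genes, reached 31.4, 15.9 and 8.93 CPM. Of other mesenchymal genes, COL1A2 was at 0.748, 0 and 0 CPM in siControl and at 6.70, 10.4 and 0 CPM in siDGUOK. LRAT and DCN were at 0 in all siControl libraries, LRAT also in siDGUOK replicate 2 and DCN also in siDGUOK replicate 3, and CSF1R, a macrophage gene, was at 0 in all siDGUOK libraries.

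The part of the T cell receptor, endothelial and mesenchymal transcripts in the results that follow was not tested. For the members and partner genes described below, calls that were lost or gained with 1 library left out are given with the gene.

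In the family as a whole, 7 of 43 members tested were called (16.3%), beside 2041 of 14476 genes (14.1%). Of the members, 3 were called higher in siDGUOK, beside 7.42% of all genes, and 4 were called lower, beside 6.68%. By adjusted p alone 9 members passed, beside 19.7% of all genes, and 14 had an unadjusted p under 0.05, beside 4425 of 14476 genes. The groups did not overlap in 18 members (41.9%), 8 with siDGUOK above and 10 with siDGUOK under siControl, beside 36% of all genes. The median log2 fold change of the members tested was −0.03, with 21 positive and 22 negative, and that of all genes tested was 0.02. With each library left out in turn the median ran from −0.06 to 0.05. It was positive without siControl replicate 2 (0.05) and without siDGUOK replicate 1 (0.04), and was −0.01 without siDGUOK replicate 2. The called members were SLC25A20, SLC25A42, SLC25A23 and SLC25A30 on the lower side and SLC25A37, SLC25A32 and SLC25A29 on the higher side, and DESeq2 called the same 7. The count of members called higher was 1 without siControl replicate 1, without siControl replicate 3 and without siDGUOK replicate 1. It was 2 without siDGUOK replicate 2 and 2 without siDGUOK replicate 3. The count called lower was 2 without siControl replicate 1.

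**Figure D1:**
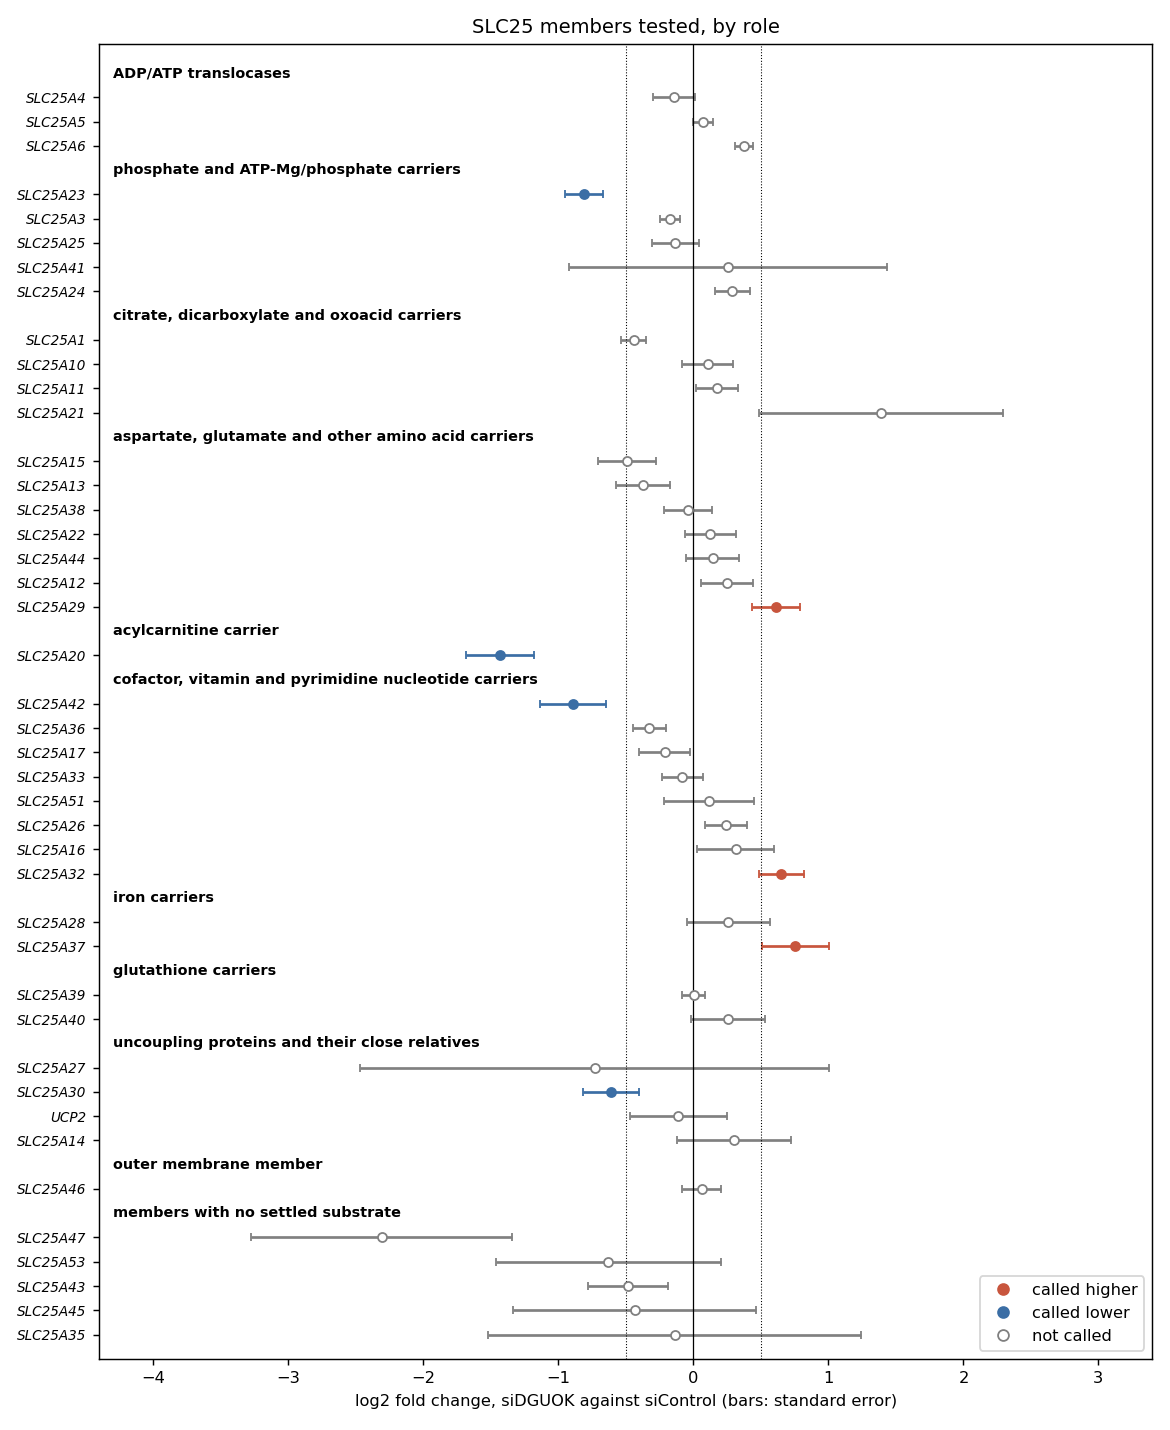
Log2 fold change of SLC25 members tested, siDGUOK against siControl, with bars of 1 standard error (n = 3 libraries per group) and members grouped by role; filled symbols are called members and dotted lines mark the fold threshold of 0.5 in each direction. The lowest called member is SLC25A20 at −1.43 and the highest is SLC25A37 at 0.75, while SLC25A47, at −2.31 with a long error bar, was not called.

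Levels within the family spanned a wide range. Per transcript length, SLC25A6 was the highest member at 1487 ± 68.9 TPM in siControl and 1873 ± 21.3 TPM in siDGUOK (SD, n = 3 libraries each). SLC25A5 came next at 416 ± 5.02 and 425 ± 11.5 TPM, followed by SLC25A1 at 272 ± 10.6 and 194 ± 18.4 TPM. SLC25A39 stood at 223 ± 6.21 and 216 ± 14.0 TPM and SLC25A3 at 127 ± 3.50 and 109 ± 6.88 TPM. In siControl these 5 levels lay apart by more than their spread, whereas in siDGUOK the SLC25A1 and SLC25A39 levels lay within their combined spread of each other. By mean TPM over the libraries of both groups, the order of these 5 was the same when lengths covered all annotated exons. In siDGUOK alone, with canonical lengths, the mean of SLC25A39 lay above that of SLC25A1, at 216 against 194 TPM. The level of SLC25A3 rests on a canonical transcript of 5984 bases, and shorter annotated transcripts would place it higher. SLC25A11, the oxoglutarate carrier, followed at 57.5 ± 3.60 and 62.9 ± 14.6 TPM, and the members after it lay close together in order.

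**Figure D2:**
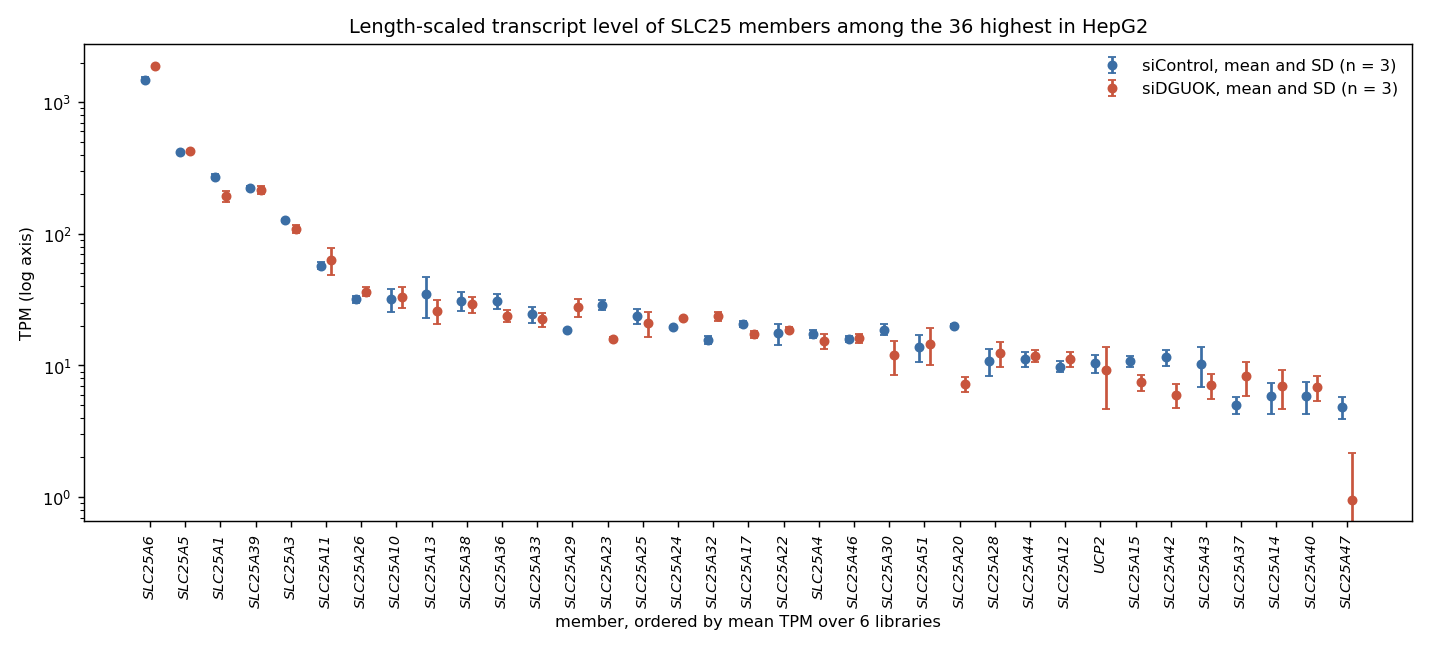
Mean TPM of SLC25 members among the 36 highest on a log axis, in siControl and siDGUOK, with bars of 1 SD (n = 3 libraries each). SLC25A6 stands highest, at 1487 TPM in siControl and 1873 TPM in siDGUOK, and SLC25A20 and SLC25A23 are among the members whose group means lie apart.

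The summed level of the family was 2847 ± 84.1 CPM in siControl and 3035 ± 34.2 CPM in siDGUOK (SD, n = 3 libraries each). Without SLC25A6 it was 1793, 1832 and 1829.8 CPM in siControl and 1735, 1687 and 1677 CPM in siDGUOK, so that the siDGUOK libraries were above siControl with SLC25A6 counted and under it without. The ADP/ATP translocases made up 61.4 ± 0.877% of the family TPM in siControl and 68.4 ± 0.235% in siDGUOK. SLC25A6 alone made up 47.6 ± 1.26% and 55.4 ± 0.202%. Neither share overlapped between groups, and both are shares of the carriers only, not of all transcripts. No test was run on them.

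Of the ADP/ATP translocases, 0 of the 3 tested were called by edgeR or DESeq2, beside 14.1% of all genes by edgeR. An unadjusted p under 0.05 was found for 1 of them, beside 4425 of 14476 genes. SLC25A6 (ENSG00000169100.13, chrX:1386152-1392113, minus strand), also known as ANT3, is a translocase found in most tissues, and the supplement of the study prints it in a list chosen on these same libraries. It was at 977, 1104 and 1004 CPM in siControl and at 1339, 1327 and 1338 CPM in siDGUOK. All siDGUOK libraries were above all siControl libraries and close to each other. The log2 fold change was 0.38 (SE 0.07, adjusted p = 0.000589), past the p threshold and under the fold threshold. SLC25A5, or ANT2, the form linked to dividing cells, was at 256, 262 and 259.9 CPM in siControl and at 280.1, 272 and 267 CPM in siDGUOK. Its groups did not overlap, yet the log2 fold change was 0.07 (SE 0.07, adjusted p = 0.570). Of its exon bases, 13.2% overlap SLC25A5-AS1 on the other strand. SLC25A4, or ANT1, the heart and muscle form, was at 39.2, 36.9 and 34.1 CPM in siControl and at 37.7, 29.4 and 32.9 CPM in siDGUOK, with overlapping groups and a log2 fold change of −0.14 (SE 0.16, adjusted p = 0.607).

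Set against SLC25A5 within each library, SLC25A6 had a CPM ratio of 3.81, 4.22 and 3.87 in siControl and of 4.78, 4.89 and 5.01 in siDGUOK. Ratios of CPM are not divided by length and are compared between libraries only. The groups did not overlap, with p = 0.1 in a two-sided exact permutation test, the smallest value that 3 against 3 libraries allow, and 0.167 after Benjamini-Hochberg correction over the 10 ratios computed. The ratio to SLC25A4 was 24.9, 29.9 and 29.4 in siControl and 35.5, 45.2 and 40.7 in siDGUOK (exact permutation p = 0.1, corrected 0.167). Of the 10 ratios, 6 did not overlap between groups and 4 did. The share over other pairs of genes was not computed, and of single genes 36% did not overlap. Each of the 6 holds SLC25A6, SLC25A23, SLC25A42 or SLC25A30, whose own groups did not overlap, so these ratios in part restate those genes. Among those that overlapped, SLC25A13 to SLC25A12 averaged 2.83 in siControl and 1.91 in siDGUOK (exact permutation p = 0.3), SLC25A39 to SLC25A40 15.5 and 12.9 (p = 0.4) and SLC25A36 to SLC25A33 1.91 and 1.59 (p = 0.5).

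The upstream sequences of SLC25A6 and SLC25A5 are shown because these closely related translocases sit at the top of the family and differed in fold change. Each is the 250 bases before the transcription start in RefSeq (GRCh38.p14), 5′ to 3′ on the gene's strand: chrX:1392114-1392363 on the minus strand for SLC25A6 and chrX:119468194-119468443 on the plus strand for SLC25A5, whose RefSeq start lies inside the Gencode bounds of the gene. Capitals mark CCAAT or its complement ATTGG and GGGCGG or its complement CCGCCC.
SLC25A6: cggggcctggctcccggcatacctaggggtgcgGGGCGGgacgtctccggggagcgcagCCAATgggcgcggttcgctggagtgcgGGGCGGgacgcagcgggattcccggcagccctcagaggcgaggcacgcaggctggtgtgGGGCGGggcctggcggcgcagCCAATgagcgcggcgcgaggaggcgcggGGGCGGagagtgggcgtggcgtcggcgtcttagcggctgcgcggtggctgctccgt
SLC25A5: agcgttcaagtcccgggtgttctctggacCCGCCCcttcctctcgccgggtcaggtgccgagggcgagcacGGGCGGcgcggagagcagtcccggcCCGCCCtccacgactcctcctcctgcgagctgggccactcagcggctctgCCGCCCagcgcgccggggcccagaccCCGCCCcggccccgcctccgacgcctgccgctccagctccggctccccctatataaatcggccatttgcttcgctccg
The SLC25A6 window held 2 CCAAT and 4 GGGCGG matches over both strands, and the SLC25A5 window held 0 and 5. Their GC content was 76.8% and 73.6%, beside a median of 58% over all promoters in the table. Such a match is a description of the letters and not a binding site.

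The acylcarnitine carrier SLC25A20 (ENSG00000178537.9, chr3:48856926-48898904, minus strand) brings long-chain acylcarnitines into the matrix for fatty acid oxidation. It was at 17.5, 17.1 and 16.4 CPM in siControl and at 7.24, 5.97 and 5.71 CPM in siDGUOK. The siControl libraries lay close together and every siDGUOK library was under all of them. SLC25A20 fell, with a log2 fold change of −1.43 (SE 0.25, adjusted p = 0.000410), the lowest of the called members.

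The bases before the SLC25A20 start are shown because it had the lowest called fold change of the family (RefSeq, GRCh38.p14, chr3:48898883-48899132, minus strand, capitals as above). Here too the RefSeq start lies inside the Gencode bounds of the gene.
SLC25A20: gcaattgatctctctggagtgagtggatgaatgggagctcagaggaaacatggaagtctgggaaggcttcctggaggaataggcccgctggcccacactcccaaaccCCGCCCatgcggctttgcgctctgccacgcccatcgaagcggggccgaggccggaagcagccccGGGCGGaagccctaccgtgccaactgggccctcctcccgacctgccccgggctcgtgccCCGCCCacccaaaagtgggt
This window held 3 GGGCGG matches over both strands, 143, 79 and 20 bases before the start, and 0 CCAAT matches.

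The enzymes that make and use acylcarnitines were listed beside SLC25A20. CPT1A (ENSG00000110090.12), which forms long-chain acylcarnitine at the outer membrane, was at 133, 129 and 125 CPM in siControl and at 50.8, 57.6 and 39.3 CPM in siDGUOK. It fell in all 3 siDGUOK libraries, with a log2 fold change of −1.39 (SE 0.13, adjusted p = 2.30e-07). CPT2 (ENSG00000157184.6), which turns acylcarnitine back into acyl-CoA in the matrix, was at 14.4, 21.2 and 22.1 CPM in siControl and at 12.05, 10.3 and 10.3 CPM in siDGUOK. Its groups did not overlap, although siControl replicate 1 lay near the siDGUOK libraries. CPT2 was called lower at −0.82 (SE 0.23, adjusted p = 0.0180), and was not called without siControl replicate 2 (−0.74, adjusted p = 0.0690), siControl replicate 3 (−0.71, adjusted p = 0.103) or siDGUOK replicate 2 (−0.78, adjusted p = 0.0520). CRAT (ENSG00000095321.16), carnitine acetyltransferase, was at 53.1, 46.7 and 61.4 CPM in siControl and at 41.7, 27.5 and 42.6 CPM in siDGUOK. The groups did not overlap, and siDGUOK replicate 2 was the lowest library. CRAT was called lower at −0.52 (SE 0.17, adjusted p = 0.0349), and was not called without siControl replicate 1 (−0.53, adjusted p = 0.0875), siControl replicate 3 (−0.42, adjusted p = 0.196) or siDGUOK replicate 2 (−0.35, adjusted p = 0.162). With shrunken fold changes it was −0.48, under the fold threshold. The muscle form CPT1B did not pass the count filter.

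Among the 5 phosphate and ATP-Mg/phosphate carriers, 1 was called (20%, beside 14.1% of all genes) and the median log2 fold change was −0.13. SLC25A23 (ENSG00000125648.14, chr19:6436079-6465203, minus strand) exchanges ATP-Mg for phosphate under control of calcium. It was at 49.4, 44.3 and 50.2 CPM in siControl and at 27.02, 26.96 and 28.0 CPM in siDGUOK. The siDGUOK libraries were nearly equal and all under siControl. SLC25A23 fell, with a log2 fold change of −0.81 (SE 0.14, adjusted p = 0.000451).

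The SLC25A23 window is shown as that of a called member with close relatives in the family that were not called (RefSeq, GRCh38.p14, chr19:6459793-6460042, minus strand, capitals as above). The RefSeq start used lies inside the Gencode bounds of the gene.
SLC25A23: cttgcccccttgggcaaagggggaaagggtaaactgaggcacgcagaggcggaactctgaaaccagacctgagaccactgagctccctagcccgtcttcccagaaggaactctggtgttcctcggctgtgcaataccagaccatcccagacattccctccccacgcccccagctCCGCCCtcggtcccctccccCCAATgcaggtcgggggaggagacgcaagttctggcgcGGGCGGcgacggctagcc
It held 1 CCAAT match, 56 bases before the start, and 2 GGGCGG matches.

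The other ATP-Mg/phosphate carriers took other courses. SLC25A24 was at 39.8, 40.1 and 38.4 CPM in siControl and at 47.6, 49.3 and 47.7 CPM in siDGUOK, so every siDGUOK library was above every siControl library. Its log2 fold change was 0.29 (SE 0.13, adjusted p = 0.145), and it was not called. Of its exon bases, 13.7% overlap genes on the other strand. SLC25A25 was at 33.2, 40.2 and 43.2 CPM in siControl and at 41.3, 37.7 and 27.1 CPM in siDGUOK, with overlapping groups and a log2 fold change of −0.13. Of its exon bases, 15.5% overlap NAIF1, SLC25A25-AS1 or a further gene on the other strand. SLC25A25-AS1 ran from 2.57 to 5.06 CPM in siControl and from 1.47 to 1.78 CPM in siDGUOK, without overlap, and with a log2 fold change of −1.24 (SE 0.61, adjusted p = 0.180) it was not called. SLC25A41, which lacks the calcium-binding region of its relatives, was at 1.496, 0.799 and 0.286 CPM in siControl and at 0.810, 0.554 and 1.75 CPM in siDGUOK, with no order between groups.

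The CPM ratio of SLC25A24 to SLC25A23 was 0.806, 0.906 and 0.765 in siControl and 1.76, 1.83 and 1.70 in siDGUOK. It lay under 1 in every siControl library and above 1 in every siDGUOK library (exact permutation p = 0.1, corrected 0.167). The ratio of SLC25A25 to SLC25A23 was 0.672, 0.909 and 0.860 in siControl and 1.53, 1.40 and 0.970 in siDGUOK, also without overlap (exact permutation p = 0.1, corrected 0.167). SLC25A3, which carries the phosphate used by ATP synthase and also copper, was at 366, 358 and 361 CPM in siControl and at 341, 305 and 314 CPM in siDGUOK. Every siDGUOK library was under every siControl library, with a log2 fold change of −0.18 (SE 0.07, adjusted p = 0.117).

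**Figure D3:**
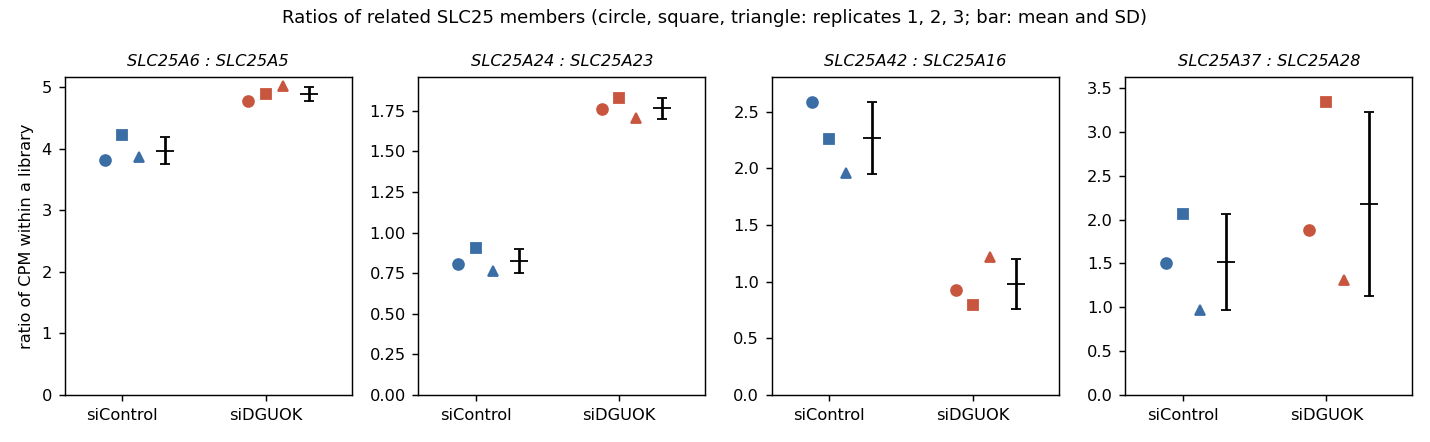
Ratio of CPM between related carriers in each library, with circles, squares and triangles for replicates 1, 2 and 3 and black bars for the mean and SD of each group (n = 3). The SLC25A24 to SLC25A23 ratio runs from 0.765 to 0.906 in siControl and from 1.70 to 1.83 in siDGUOK, while the SLC25A37 to SLC25A28 ratio overlaps between groups.

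Of the 4 citrate, dicarboxylate and oxoacid carriers, edgeR and DESeq2 called 0, beside 14.1% of all genes by edgeR. An unadjusted p under 0.05 was found for 1 of them, beside 4425 of 14476 genes. SLC25A1 (ENSG00000100075.9, chr22:19175581-19178739, minus strand) exports citrate, from which ACLY makes cytosolic acetyl-CoA for fatty acid and sterol synthesis. It was at 191, 204 and 207 CPM in siControl and at 163, 138 and 142 CPM in siDGUOK. All siDGUOK libraries were under all siControl libraries, and siDGUOK replicate 1 was the nearest to them. The log2 fold change was −0.44 (SE 0.09, adjusted p = 0.00134), past the p threshold and short of the fold threshold. Without siDGUOK replicate 1 it was −0.54 (adjusted p = 0.000962), which met both.

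ACLY was at 479, 471 and 481 CPM in siControl and at 379, 383 and 407 CPM in siDGUOK. Its groups did not overlap, and the log2 fold change was −0.29 (SE 0.07, adjusted p = 0.00661). The oxoglutarate carrier SLC25A11 had a log2 fold change of 0.17 and the dicarboxylate carrier SLC25A10 of 0.11, both with overlapping groups. The oxodicarboxylate carrier SLC25A21 had 5, 28 and 12 counts in siControl and 64, 24 and 58 in siDGUOK, with overlapping groups, a log2 fold change of 1.39 and an SE of 0.90. Of its annotated exon bases, 37.2% overlap PAX9 or SLC25A21-AS1 on the other strand.

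Of 7 tested carriers of aspartate, glutamate and other amino acids, 1 was called (14.3%, beside 14.1% of all genes), and the median log2 fold change was 0.13. SLC25A29 (ENSG00000197119.12, chr14:100291116-100306547, minus strand) carries arginine, lysine and other basic amino acids. It was at 19.7, 21.3 and 20.0 CPM in siControl and at 30.3, 26.8 and 36.3 CPM in siDGUOK. All siDGUOK libraries were above siControl and spread more widely. Of its exon bases, 9.31% overlap other listed genes, 1 of them on the other strand. SLC25A29 rose, with a log2 fold change of 0.61 (SE 0.18, adjusted p = 0.0201). It was not called without siControl replicate 1 (0.59, adjusted p = 0.0619), siControl replicate 3 (0.60, adjusted p = 0.0689), siDGUOK replicate 1 (0.62, adjusted p = 0.0591) or siDGUOK replicate 3 (0.48, adjusted p = 0.109).

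The ornithine carrier of the urea cycle, SLC25A15, was at 21.05, 20.6 and 17.4 CPM in siControl and at 14.9, 15.4 and 11.8 CPM in siDGUOK. Its groups did not overlap, and with a log2 fold change of −0.49 (SE 0.21, adjusted p = 0.122) it was not called. Both aspartate-glutamate carriers had overlapping groups: SLC25A13, the liver form, had a log2 fold change of −0.38 and SLC25A12 of 0.25. For SLC25A13, siControl replicate 3 stood out at 72.3 CPM, while the other libraries ran from 34.97 to 49.98 CPM. The glutamate carrier SLC25A22, the glycine carrier SLC25A38 and the branched-chain amino acid carrier SLC25A44 had log2 fold changes of 0.13, −0.04 and 0.14, all with overlapping groups.

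Urea cycle enzymes on either side of SLC25A15 were listed with it. CPS1 (ENSG00000021826.14), carbamoyl phosphate synthetase of the matrix, was at 42.2, 37.0 and 31.8 CPM in siControl and at 24.3, 26.7 and 24.5 CPM in siDGUOK. The groups did not overlap and siControl varied more. CPS1 was called lower at −0.56 (SE 0.16, adjusted p = 0.0210), and was not called without siControl replicate 1 (log2 fold change −0.45, adjusted p = 0.119) or siDGUOK replicate 1 (−0.55, adjusted p = 0.0668). ASS1 (ENSG00000130707.17), argininosuccinate synthase, which joins citrulline to aspartate in the cytosol, was at 57.6, 65.6 and 70.2 CPM in siControl and at 36.3, 33.5 and 48.1 CPM in siDGUOK. It fell in all siDGUOK libraries, with a log2 fold change of −0.71 (SE 0.15, adjusted p = 0.00204). ASL, argininosuccinate lyase, had a log2 fold change of 0.28 (adjusted p = 0.147), and OTC did not pass the count filter.

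Of 9 tested carriers of cofactors, vitamins and pyrimidine nucleotides, 2 were called (22.2%, beside 14.1% of all genes), 1 in each direction. The groups did not overlap in 6 (66.7%, beside 36% of all genes). SLC25A42 (ENSG00000181035.13, chr19:19063994-19113030, plus strand) brings coenzyme A into the matrix in exchange for adenine nucleotides. It was at 20.0, 15.9 and 17.7 CPM in siControl and at 10.1, 7.45 and 11.3 CPM in siDGUOK. All siDGUOK libraries were under siControl, replicate 2 the furthest. SLC25A42 fell, with a log2 fold change of −0.89 (SE 0.24, adjusted p = 0.0130). It was not called without siControl replicate 1 (−0.80, adjusted p = 0.0684) or siDGUOK replicate 2 (−0.74, adjusted p = 0.0579).

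The SLC25A42 window is shown for its number of CCAAT matches (RefSeq, GRCh38.p14, chr19:19063744-19063993, plus strand, capitals as above).
SLC25A42: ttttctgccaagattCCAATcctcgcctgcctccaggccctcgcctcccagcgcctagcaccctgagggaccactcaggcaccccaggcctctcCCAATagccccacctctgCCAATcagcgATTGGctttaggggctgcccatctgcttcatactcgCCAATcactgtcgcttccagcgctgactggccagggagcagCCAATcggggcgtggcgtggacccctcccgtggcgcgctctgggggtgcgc
It held 6 CCAAT matches, 5 on the gene's strand and 1 on the other, and none of the other motifs searched.

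SLC25A16, a relative of SLC25A42 also linked to coenzyme A, was at 7.74, 7.03 and 9.06 CPM in siControl and at 10.9, 9.42 and 9.25 CPM in siDGUOK. Its siDGUOK libraries were above siControl by a narrow margin, with a log2 fold change of 0.31 (adjusted p = 0.526). The CPM ratio of SLC25A42 to SLC25A16 was 2.59, 2.26 and 1.96 in siControl and 0.930, 0.791 and 1.22 in siDGUOK. The ratio groups did not overlap (exact permutation p = 0.1, corrected 0.167).

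SLC25A32 (ENSG00000164933.11, minus strand) supplies the matrix with folate and has also been linked to FAD. It was at 19.5, 22.4 and 22.5 CPM in siControl and at 31.5, 32.8 and 36.8 CPM in siDGUOK. Every siDGUOK library was above every siControl library. SLC25A32 rose, with a log2 fold change of 0.65 (SE 0.17, adjusted p = 0.00954). Of its annotated exon bases, 11.1% overlap DCAF13 on the other strand, and the study states default counting settings, which ignore strand, so that reads of both genes cannot be told apart there. The effect on its counts was not tested.

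Enzymes of mitochondrial folate metabolism were listed beside SLC25A32. MTHFD1L (ENSG00000120254.15), which releases formate in the matrix, was at 69.1, 57.5 and 61.7 CPM in siControl and at 89.1, 96.7 and 101 CPM in siDGUOK. It rose in all siDGUOK libraries, with a log2 fold change of 0.61 (SE 0.11, adjusted p = 0.000649). MTHFD2 and SHMT2, which act before it, had log2 fold changes of 0.39 (adjusted p = 0.00398) and 0.24 (adjusted p = 0.0411), past the p threshold and under the fold threshold. MAT2A (ENSG00000168906.12) is one of the enzymes that make S-adenosylmethionine, which SLC25A26 imports. The study reports another methionine adenosyltransferase gene, MAT1A, as lower in siDGUOK, and MAT1A was not in the lists used here. MAT2A was at 84.2, 74.5 and 82.2 CPM in siControl and at 115, 130.1 and 131 CPM in siDGUOK. The groups were far apart, and MAT2A was called higher at 0.65 (SE 0.10, adjusted p = 0.000135). SLC25A26 itself had non-overlapping groups, from 28.0 to 32.6 CPM in siControl and from 33.3 to 39.4 CPM in siDGUOK, and a log2 fold change of 0.24 (adjusted p = 0.325). Of its exon bases, 12.2% overlap LRIG1 on the other strand.

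SLC25A51, the NAD carrier, was at 8.44, 9.11 and 5.62 CPM in siControl and at 8.10, 5.97 and 11.1 CPM in siDGUOK, with overlapping groups and a log2 fold change of 0.12. NADK2 (ENSG00000152620.12), the NAD kinase of the matrix, was at 36.7, 31.3 and 34.7 CPM in siControl and at 16.9, 17.9 and 13.5 CPM in siDGUOK. It fell in all siDGUOK libraries, with a log2 fold change of −1.09 (SE 0.18, adjusted p = 0.000261).

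The pyrimidine nucleotide carriers bear on mitochondrial DNA synthesis as importers of nucleotides. SLC25A36 was at 95.2, 78.8 and 77.7 CPM in siControl and at 68.3, 73.6 and 58.8 CPM in siDGUOK. Its groups did not overlap, with a log2 fold change of −0.33 (SE 0.12, adjusted p = 0.0692), and it was not called. SLC25A33 had a log2 fold change of −0.08 with overlapping groups. SLC25A17, a cofactor carrier of peroxisomes that the supplement of the study also prints in a list chosen on these libraries, was at 20.7, 23.6 and 21.2 CPM in siControl and at 17.5, 19.5 and 19.6 CPM in siDGUOK. Its siDGUOK libraries were all under siControl, with a log2 fold change of −0.21 (SE 0.19, adjusted p = 0.505).

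Of the 2 iron carriers, or mitoferrins, 1 was called, beside 14.1% of all genes. SLC25A37 (ENSG00000147454.13, plus strand), mitoferrin of red cell precursors and other tissues, was at 11.2, 13.0 and 9.44 CPM in siControl and at 16.4, 25.5 and 15.2 CPM in siDGUOK. All siDGUOK libraries were above siControl, and siDGUOK replicate 2 was well above the rest. SLC25A37 rose, with a log2 fold change of 0.75 (SE 0.25, adjusted p = 0.0397). It was not called without siControl replicate 1 (0.75, adjusted p = 0.0972), siControl replicate 3 (0.65, adjusted p = 0.154), siDGUOK replicate 1 (0.83, adjusted p = 0.0669) or siDGUOK replicate 2 (0.49, adjusted p = 0.264). The library with its highest level, siDGUOK replicate 2, is also the one with the endothelial transcripts described above, and their part in this call was not tested.

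SLC25A28, the more widely expressed mitoferrin, was at 7.48, 6.29 and 9.72 CPM in siControl and at 8.75, 7.63 and 11.5 CPM in siDGUOK, with overlapping groups and a log2 fold change of 0.26 (adjusted p = 0.649). The CPM ratio of SLC25A37 to SLC25A28 was 1.5, 2.07 and 0.971 in siControl and 1.88, 3.34 and 1.32 in siDGUOK, with overlap (exact permutation p = 0.5). FECH, which inserts iron into heme, had a log2 fold change of −0.72 (adjusted p = 0.0616) and was not called, though it was without siDGUOK replicate 3 (−0.89, adjusted p = 0.0432). ALAS1, the first enzyme of heme synthesis, had −0.04.

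Neither glutathione carrier was called by edgeR or DESeq2, beside 14.1% of all genes by edgeR. At an unadjusted p under 0.05 there were 0, beside 4425 of 14476 genes. SLC25A39 was at 162, 169.5 and 172 CPM in siControl and at 161, 163 and 180.1 CPM in siDGUOK. The groups overlapped, and the log2 fold change was 0.00 (SE 0.08, adjusted p = 0.989), so near 0 that the shift which another scaling gives all genes turned its sign. SLC25A40 had a log2 fold change of 0.25 with overlapping groups. The glutathione synthesis genes GCLC, GCLM and GSS had log2 fold changes of 0.16, 0.54 and −0.19, and none was called, though GCLM was without siDGUOK replicate 3 (0.61, adjusted p = 0.0483).

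Of the uncoupling proteins and their close relatives, 4 of 6 were tested and 1 was called (25%, beside 14.1% of all genes). SLC25A30 (ENSG00000174032.16, chr13:45393316-45418455, minus strand), a relative of the uncoupling proteins described in kidney, was at 28.7, 34.9 and 34.4 CPM in siControl and at 26.4, 23.3 and 14.6 CPM in siDGUOK. The groups did not overlap, but siControl replicate 1 and siDGUOK replicate 1 lay close together, and siDGUOK replicate 3 was the lowest. SLC25A30 was called lower at −0.61 (SE 0.21, adjusted p = 0.0457), near the threshold. It was not called without siControl replicate 1 (−0.69, adjusted p = 0.0539), siControl replicate 2 (−0.56, adjusted p = 0.129), siControl replicate 3 (−0.57, adjusted p = 0.153), siDGUOK replicate 2 (−0.67, adjusted p = 0.0566) or siDGUOK replicate 3 (−0.40, adjusted p = 0.173).

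SLC25A14, its nearest relative, was at 5.39, 3.25 and 4.77 CPM in siControl and at 6.32, 6.77 and 3.45 CPM in siDGUOK, with overlapping groups and a log2 fold change of 0.30 (adjusted p = 0.705). The CPM ratio of SLC25A30 to SLC25A14 was 5.33, 10.7 and 7.22 in siControl and 4.17, 3.45 and 4.24 in siDGUOK, without overlap (exact permutation p = 0.1, corrected 0.167). UCP2, the uncoupling protein of many tissues, was at 8.76, 6.87 and 8.77 CPM in siControl and at 4.70, 11.8 and 6.07 CPM in siDGUOK, where replicate 2 was the highest of all libraries. SLC25A27 had at most 18 counts in any library.

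**Figure D4:**
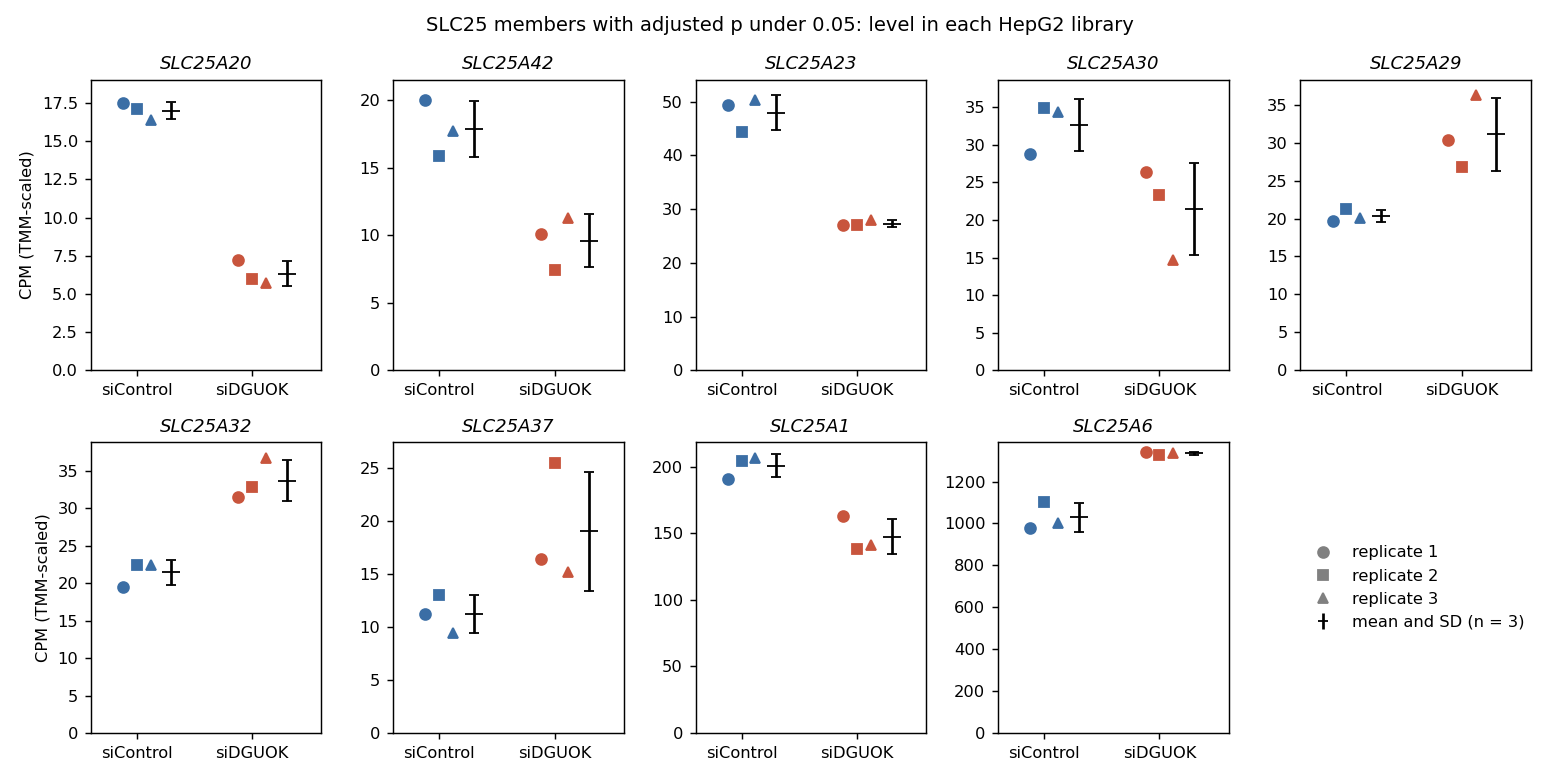
CPM of the called SLC25 members and of SLC25A6 and SLC25A1 in each of the 6 libraries, with circles, squares and triangles for replicates 1, 2 and 3 and black bars for the mean and SD (n = 3). No member shown has overlapping groups, and SLC25A37 and SLC25A30 each have a siDGUOK library that lies away from the other two, at 25.5 and 14.6 CPM.

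Of 5 tested members with no settled substrate, edgeR and DESeq2 called 0, beside 14.1% of all genes by edgeR. Beside 4425 of 14476 genes with an unadjusted p under 0.05, there was 1 such member. That was SLC25A47, a carrier known mainly from liver, with 86, 86 and 33 counts in siControl and 9, 33 and 0 in siDGUOK. In CPM every siDGUOK library was under siControl, from 3.15 to 4.59 against 0 to 2.03. Its log2 fold change was −2.31 (SE 0.97, adjusted p = 0.110). It was called with replicate pairs as a block (−3.24, adjusted p = 0.0354), with no count filter (−2.31, adjusted p = 0.0422) and without siDGUOK replicate 2 (−4.08, adjusted p = 0.01004) and was not called in the other alternatives. Over all of them the log2 fold change ran from −4.08 to −0.57, the latter with shrunken fold changes, and the adjusted p from 0.01004 to 0.274. SLC25A45, which like SLC25A47 is a close relative of SLC25A29, was at 1.82, 2.50 and 1.05 CPM in siControl and at 1.08, 1.48 and 1.43 CPM in siDGUOK, with overlapping groups. SLC25A43, SLC25A53 and SLC25A35 had log2 fold changes of −0.49, −0.63 and −0.14, all with overlapping groups. Of the exon bases of SLC25A35, 28.7% overlap RANGRF on the other strand. SLC25A46, a member of the outer membrane that acts in mitochondrial shape, had 0.06.

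The remaining 6 members did not pass the count filter. SLC25A2, an ornithine carrier, and SLC25A34 had 0 counts in every library, and a count of 0 allows up to 3 counts per library for counting error alone. SLC25A48 had 8 counts in siControl replicate 2 and 0 elsewhere. SLC25A18, a glutamate carrier, had 3, 1 and 22 counts in siControl and 2, 3 and 0 in siDGUOK. UCP1, the uncoupling protein of brown fat, had 3 counts in siDGUOK replicate 1 and 0 elsewhere. UCP3, that of muscle, had 0, 3 and 3 counts in siControl and 1, 0 and 15 in siDGUOK. Differences in these members were not detectable at this depth.

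Upstream sequence was compared over the family. The RefSeq table matched 41 of 49 members, with 52 promoters, and the 250 bases before each start were searched on both strands for 8 motifs. GGGCGG, the GC box, was in 65.4% of the member promoters and 42.6% of all 35115 promoters, and CCAAT was in 42.3% and 32.0%. CACGTG, the E-box, was in 13.5% and 6.34%, TGCGCA, the core of the NRF1 motif, in 5.77% and 6.89%, and AGGTCA, of nuclear receptors, in 9.62% and 12.1%. TGATGNAA, of C/EBP and ATF factors, was in 1.92% and 3.14%, TCACNCCAC, a sterol element, in 1.92% and 0.883%, and CAAAGTCCA, an HNF4 element, in 0% and 0.325%. No test was run on these shares, and a window without a match says only that the letters are absent from it. Members with no entry include SLC25A16, SLC25A2, SLC25A30, SLC25A32, SLC25A35, SLC25A37 and SLC25A41.

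Other transport proteins of the mitochondrial membranes were listed for comparison, among them MTCH1 and MTCH2, relatives of the family under other symbols. Of 23 tested, 2 were called (8.7%, beside 14.1% of all genes), and the median log2 fold change was 0.06. With each library left out in turn this median ran from −0.08 to 0.11. MPC1 (ENSG00000060762.18), a subunit of the mitochondrial pyruvate carrier, was at 63.6, 51.3 and 52.0 CPM in siControl and at 19.9, 20.5 and 13.5 CPM in siDGUOK. It fell in all siDGUOK libraries, with a log2 fold change of −1.63 (SE 0.18, adjusted p = 2.27e-06). Its partner MPC2 had a log2 fold change of −0.46 (adjusted p = 0.0180), under the fold threshold, and was called without siControl replicate 1 (−0.51, adjusted p = 0.0254) and without siDGUOK replicate 2 (−0.54, adjusted p = 0.0141). SFXN1 (ENSG00000164466.12), a serine carrier of the inner membrane, was at 44.1, 43.2 and 44.9 CPM in siControl and at 71.7, 69.7 and 80.2 CPM in siDGUOK. It rose in all siDGUOK libraries, with a log2 fold change of 0.75 (SE 0.12, adjusted p = 0.000165). VDAC2, a pore of the outer membrane, passed the p threshold alone at 0.38 (adjusted p = 0.00838).

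Of 32 enzymes on either side of the carriers, 27 were tested and 9 called (33.3%, beside 14.1% of all genes). Like the other lists here, this one was chosen with earlier results of these data known. Its share is therefore not read as a result about such enzymes. Of these 3 were higher, beside 7.42% of all genes, and 6 lower, beside 6.68%. The median log2 fold change of the enzymes tested was −0.01, and with each library left out in turn it ran from −0.07 to 0.01. The lower ones were CPT1A, CPT2, CRAT, NADK2, CPS1 and ASS1, and the higher ones were MTHFD1L, MAT2A and GPD1. GPD1 (ENSG00000167588.12), the cytosolic enzyme of the glycerol phosphate shuttle, was at 2.19, 2.66 and 3.24 CPM in siControl and at 12.8, 14.2 and 15.6 CPM in siDGUOK. It rose in all siDGUOK libraries, with a log2 fold change of 2.41 (SE 0.32, adjusted p = 2.16e-05). GPD2, its partner in the inner membrane, had at most 9 counts in any library, and ME1 also failed the count filter. Enzymes of the malate-aspartate shuttle, GOT1, GOT2, MDH1 and MDH2, had log2 fold changes of 0.21, 0.00, −0.01 and −0.21, and none was called.

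**Figure D5:**
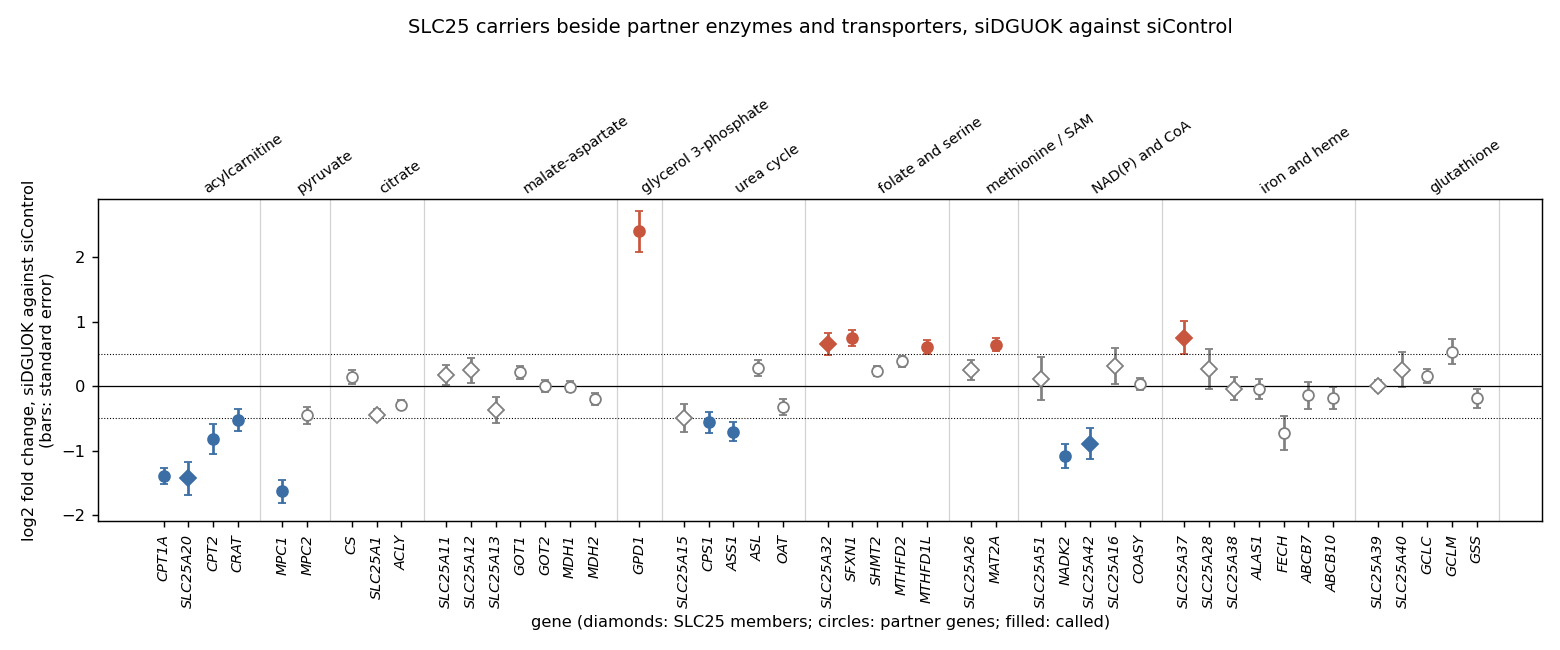
Log2 fold change of carriers and of enzymes or transport proteins on either side of them, siDGUOK against siControl, with bars of 1 standard error (n = 3 libraries per group), diamonds for SLC25 members, circles for other genes, filled symbols for called genes and dotted lines at the fold threshold. SLC25A20 at −1.43 stands beside CPT1A at −1.39, and SLC25A32 at 0.65 beside MTHFD1L at 0.61.

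Transcripts of the mitochondrial genome were read as a further comparison. Of 13 protein genes encoded there, edgeR and DESeq2 called 0, beside 14.1% of all genes by edgeR. At an unadjusted p under 0.05 there was 1, beside 4425 of 14476 genes, and the median log2 fold change of the 13 was −0.30. MT-CO1 was at 5746, 3803 and 3263 CPM in siControl and at 2822, 3133 and 2635 CPM in siDGUOK, without overlap, at a log2 fold change of −0.58 (SE 0.22, adjusted p = 0.151). The study, in its own DESeq2 analysis, reports MT-CO1 as significantly lower, unlike the DESeq2 fit here. In siControl replicate 1 it was far above the other siControl libraries, and without siControl replicate 3 it was called (−0.74, adjusted p = 0.00323). Mitochondrially encoded genes held 3.78%, 2.54% and 2.72% of the counts in siControl and 2.50%, 2.88% and 2.31% in siDGUOK, highest in siControl replicate 1. Without that library the median log2 fold change of the 13 genes was −0.03, with 5 positive, and with each other library left out it ran from −0.47 to −0.25.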

How the data were processed

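The authors deposited a table of integer read counts per gene for the 6 libraries; per the labels, reads were aligned to GRCh38 with STAR 2.6.1 and counted with featureCounts 1.6.5 on an earlier Gencode release, with Bowtie 1.1.2 also named. Counts were read as deposited. Genes were kept by edgeR's filterByExpr with a minimum count of 10, scaled by TMM and tested with the edgeR 4.0.16 quasi-likelihood test (robust, condition only, two-sided) in R 4.3.3, with p-values adjusted over all 14476 genes tested. CPM used TMM-scaled totals. TPM used the length of the canonical transcript (Gencode 44) and was scaled over protein-coding genes. SE was derived from the F statistic and the log2 fold change. Exon overlaps are with other genes of the table, from Gencode 44. Between replicate libraries, variance was 10.8 to 24.8 times that of counting error. Ratios were compared by exact permutation. Promoters came from RefSeq (GRCh38.p14). The procedure was tested on simulated data. Alternatives were DESeq2 1.42.0 with and without shrinkage, RLE scaling, mitochondrially encoded genes left out, no count filter, a replicate block, no fold threshold and each library left out. Members and lists were chosen with earlier results of these data known. Values per library are given for called members, members past the p threshold alone, the 5 highest in TPM, the ADP/ATP translocases and close relatives of these, and for called genes of the partner lists. Other members and listed genes whose values are given, such as SLC25A15, SLC25A36, SLC25A51, UCP2, ACLY and MT-CO1, were picked after their values were seen.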

Additional observations from a re-analysis of the deposited data

Results flagged for a closer look

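Genes outside the membership rule whose names derive from the family held some counts. The 17 SLC25 pseudogenes listed summed to a mean of 0.833 CPM in siDGUOK, against 0.0534, 0.533 and 0 CPM in the siControl libraries. In siDGUOK replicates 1, 2 and 3 the sums were 2.16, 0.246 and 0.0920 CPM, from 40, 4 and 2 counts, so that the mean rests on replicate 1, the library with the T cell receptor counts. The part of that library in this sum was not tested.

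SLC25A21-AS1, the transcript antisense to SLC25A21, had a mean of 5.72 CPM in siDGUOK. It was at 3.37, 5.49 and 3.62 CPM in siControl and at 2.32, 4.80 and 10.0 CPM in siDGUOK, with overlapping groups, and it was not called. Its mean lay above every siControl library, and among the siDGUOK libraries only replicate 3 did.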

How the results depend on the processing

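The calls of SLC25A20, SLC25A23 and SLC25A32 kept their direction and side of the thresholds in all 12 alternatives, with log2 fold changes from −1.56 to −1.15, from −0.87 to −0.76 and from 0.57 to 0.68. DGUOK stayed called in all 12, from −2.72 to −2.26, and SLC25A6 stayed under 0.05 in adjusted p and under the fold threshold in all 12, from 0.34 to 0.43. SLC25A42 kept its call in 10 of 12, SLC25A29 and SLC25A37 in 8 and SLC25A30 in 7, and each loss came with a library left out. SLC25A39, not called in any setting, reversed sign to −0.0052 with DESeq2, −0.0051 with shrunken fold changes, −0.0055 with RLE scaling and −0.0076 without mitochondrially encoded genes, and ranged from −0.058 to 0.027 with a library left out. With a library left out, members called higher ranged from 1 to 3, members called lower from 2 to 5, and the median log2 fold change of members from −0.057 to 0.051, where the SD of the library medians was 0.0647. Genes called ranged from 1704 to 1935 with a library left out and from 1979 to 2174 under the other alternatives that kept the fold threshold. With a replicate block, which pairs libraries by replicate number, DGUOK was at −2.58, 2077 genes were called, 3 members higher and 5 lower (SLC25A47 added at −3.24), and the median was −0.03. Correlations of the paired residuals over genes were 0.024, 0.0166 and −0.00224 in replicates 1, 2 and 3. Without the fold threshold 4 members passed as higher and 5 as lower. Shrunken fold changes put CRAT under the fold threshold. The cause of the lost calls was not tested, and each fit with a library left out also held fewer libraries. With 3 libraries per group, exact permutation cannot go under 0.1, and the tested members whose mean lay under 3 CPM in both groups had standard errors of 0.84 or more.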
